A study of Mus musculus with 19 samples.

Results

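RNA sequencing of 1 unsorted young mouse cochlea was compared with 4 libraries of GFP-negative cells sorted from young cochleae. The question was which cell-type genes the sorted nonmacrophage libraries held at a lower or a higher level than the dissociated tissue. The comparison used 5 of the 19 libraries of the series: library 13, labelled as dissociated and unsorted cochlea, and the whole-cochlea nonmacrophage libraries of young mice, which are called replicates 2, 5, 6 and 14 by the numbers in their labels. All mice were CX3CR1 GFP/+ heterozygotes, in which green fluorescent protein (GFP) replaces 1 copy of the chemokine receptor gene Cx3cr1, so both groups carried 1 functional copy of that gene. Young mice were 1.5 months old and each isolate came from 1 mouse. Sorted GFP-positive cells of the whole cochlea, called macrophages (replicates 9 and 15, young), and GFP-negative cells of 4 old mice (12 to 14 months) served as further reference points. The gates of the sort and the share of cells it recovered were not given in the sources used here.

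The cochlea houses several tissues with little in common. Hair cells of the organ of Corti turn sound into receptor potentials and release glutamate through ribbon synapses onto spiral ganglion neurons, whose axons form the auditory nerve and are wrapped by Schwann cells and, toward the brainstem, oligodendrocytes. The lateral wall consists of the stria vascularis, with its melanocyte-like intermediate cells, and the spiral ligament, a bed of fibrocytes that recycles potassium. Resident macrophages lie along vessels, among the ganglion neurons and in the ligament, and Cx3cr1 is active in them, which is the basis of the GFP sort.

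Values are normalized reads, that is, read counts divided by a factor for each library. A gene was called higher in the unsorted library when its log2(value + 1) lay at least 1 unit above the highest of the 4 nonmacrophage libraries, and lower when it lay at least 1 unit below the lowest (2-fold on the value + 1 scale). Of 18639 genes, 16733 reached 10 normalized reads in at least 1 of the 5 libraries and were compared. A gene with no read in at least 1 of the 4 nonmacrophage libraries could not be called lower by this rule. That held for 20.9% of the genes compared. With 1 library against 4 an exact permutation test cannot give a p below 0.2, so the calls rest on the range of the 4 and carry no p. In whole tissue, fewer cells of a type and less RNA per cell cannot be told apart.

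Depth and the number of genes with reads differed among the libraries before any cell type is considered. The unsorted library held 20.6 M reads (M, mega) and had reads in 17468 genes. Replicates 2, 5 and 6 held 24.9 to 25.4 M reads and had reads in 14399 to 15433 genes, and replicate 14 held 60.2 M reads with 17200 genes. Of 2834 genes at 10 to 100 normalized reads in the unsorted library, 47.3%, 31.8% and 40.2% had no read in replicates 2, 5 and 6, and 8.5% had none in replicate 14. In the 4 old nonmacrophage libraries (51.2 to 64.4 M reads) that share was 3.5% to 4.3%. Thinning every library to the reads of the unsorted one left the counts of calls nearly as they were, at 1582 higher and 311 lower. Without replicate 14, 2610 genes were higher and 811 lower.

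The unsorted library was higher for 1588 genes (9.49% of those compared) and lower for 316 (1.89%). These shares are the background for the list counts that follow. Over all genes the median difference from the mean of the 4 nonmacrophage libraries was 0.29 on the log2(value + 1) scale. Quantile normalization moved that median to -0.04 and the calls to 1263 higher and 827 lower, so that 60.4% of calls were higher instead of 83.4%. Of the 1588 higher genes, 567 did not exceed the higher of the 2 young macrophage libraries. The number 2-fold above all 6 sorted young libraries of the whole cochlea was 778 (4.65%), and 46 (0.275%) were 2-fold below all 6. Against the 4 young and 4 old nonmacrophage libraries together, 1051 genes were higher (6.28%) and 145 lower (0.867%).

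**Figure D1:**
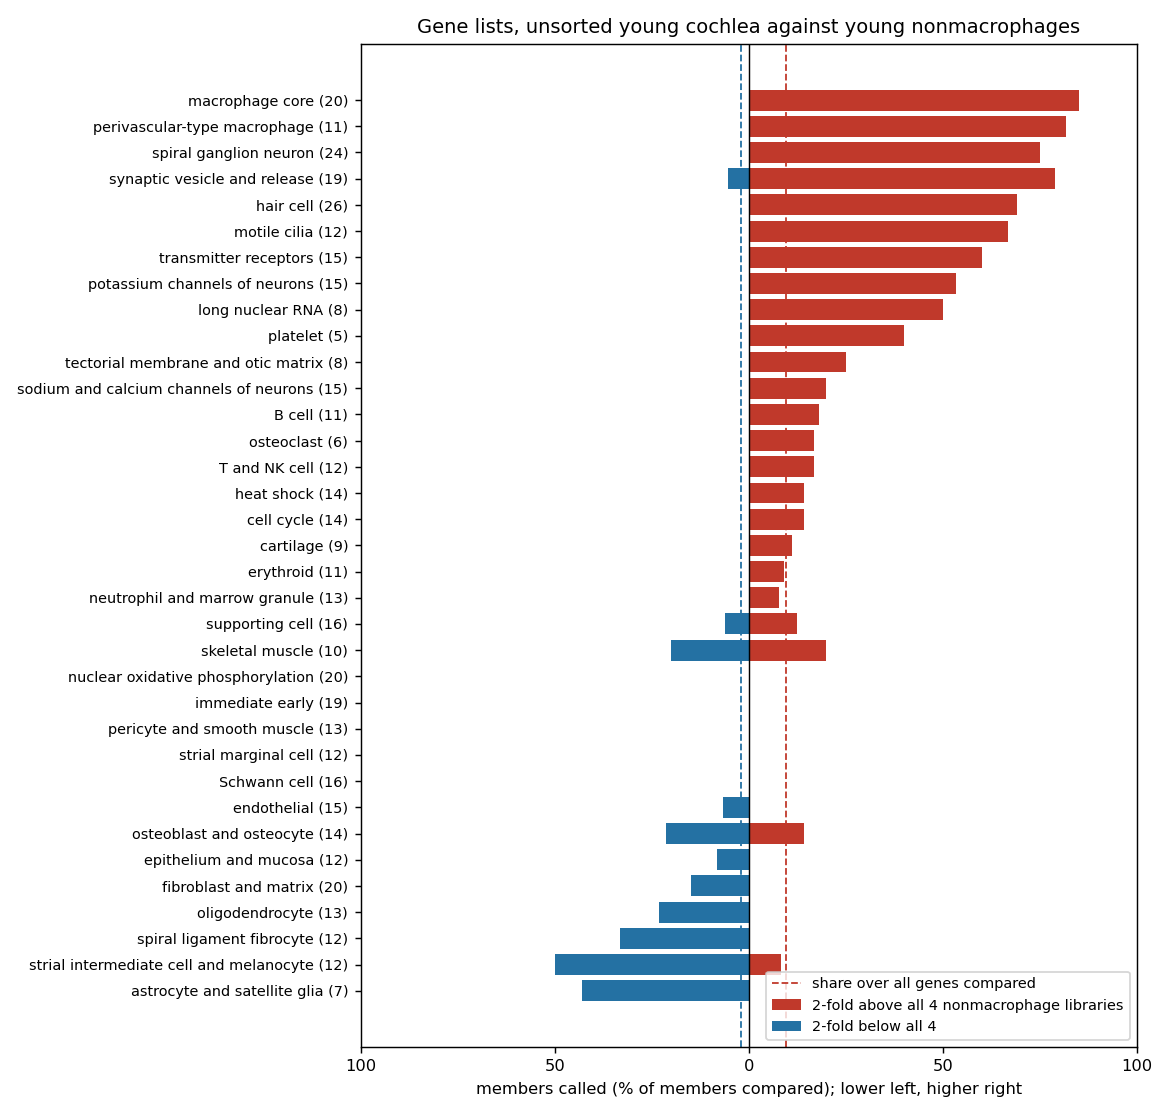
Share of the members of each gene list that were 2-fold above (right, red) or 2-fold below (left, blue) all 4 young nonmacrophage libraries, in percent of the members compared (number in brackets), with dashed lines at the shares over all genes. Macrophage, neuron, synapse and hair cell lists extend far to the right of 9.49%, and the melanocyte, ligament, oligodendrocyte and astrocyte lists extend to the left of 1.89%.

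Macrophage genes were higher in the unsorted library than in every nonmacrophage library, with no exception among 20 core members. Of these, 17 passed the 2-fold rule and none was lower. Among all 16733 genes compared, 4391 were above every nonmacrophage library by any amount, and 9.49% passed the 2-fold rule. Cx3cr1 (chromosome 9, 119901616 to 120069879, minus strand, mm10), the fractalkine receptor that carries the GFP, stood at 1968 normalized reads in the unsorted library and at 1.78, 2.72, 1.63 and 4.28 in replicates 2, 5, 6 and 14. Mrc1, the mannose receptor of perivascular macrophages, stood at 1044 against 1.78, 1.36, 1.63 and 1.07. Both genes were close to absent from all 4 replicates, with no overlap of the groups. The single nonmacrophage libraries of the young auditory nerve and lateral wall held Cx3cr1 at 2.80 and 35.2. Csf1r, the receptor for the growth factor that keeps macrophages alive, stood at 8096 against 19.6, 128, 35.9 and 148, which is 5.76 log2 units above the highest replicate.

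The promoters of 3 macrophage genes that were higher in the unsorted library are shown for their letters only. Whether promoter sequence has a part in the differences was not tested. The capitals mark AGGAAGTG or its reverse complement CACTTCCT. This is a core of the sites bound by the macrophage transcription factor PU.1 (Spi1) and other ETS factors. Each window holds the 250 bases before the RefSeq start (GRCm38.p6), 5′ to 3′ on the gene's strand, at chr9:120068297-120068546 (minus), chr2:14229164-14229413 (plus) and chr4:136892915-136893164 (minus). The GENCODE annotation, from which the gene positions in the text come, sets these starts elsewhere. By it the Cx3cr1 window lies wholly inside the gene, and the Mrc1 and C1qc windows lie partly inside theirs. RefSeq windows were found for 23 of the 32 genes in the macrophage lists. Of the 23, 3 hold the motif on either strand in at least 1 window. Mrc1 and C1qc, printed here, are among the 3. Over all genes, 3.14% of 32851 windows hold it. That share counts windows and not genes, so it is no measure of enrichment in the lists. A match is a description of the letters and not a site.
Cx3cr1: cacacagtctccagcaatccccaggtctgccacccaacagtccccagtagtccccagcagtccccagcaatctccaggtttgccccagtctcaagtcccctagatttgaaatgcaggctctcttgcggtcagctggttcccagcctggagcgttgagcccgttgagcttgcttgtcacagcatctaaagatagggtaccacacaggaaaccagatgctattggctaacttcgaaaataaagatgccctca
Mrc1: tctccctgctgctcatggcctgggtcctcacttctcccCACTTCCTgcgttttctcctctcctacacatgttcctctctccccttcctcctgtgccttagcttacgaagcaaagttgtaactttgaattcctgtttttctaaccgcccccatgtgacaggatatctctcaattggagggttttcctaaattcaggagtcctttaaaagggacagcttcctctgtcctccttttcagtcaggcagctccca
C1qc: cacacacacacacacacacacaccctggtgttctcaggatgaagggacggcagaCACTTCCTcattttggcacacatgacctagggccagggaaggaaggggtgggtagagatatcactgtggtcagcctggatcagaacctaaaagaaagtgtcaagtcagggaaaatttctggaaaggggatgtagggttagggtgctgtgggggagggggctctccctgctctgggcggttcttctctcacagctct

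The complement genes C1qa, C1qb and C1qc, whose products tag debris and synapses for removal, were among the most abundant macrophage messages of the unsorted library. C1qc stood at 4798 in it and at 251, 104, 209 and 137 in replicates 2, 5, 6 and 14. C1qa stood at 2769 against 117, 49.0, 176 and 22.5. The mean of the 4 replicates was 175 ± 66.9 for C1qc and 91.3 ± 69.3 for C1qa (SD, n = 4). Spi1 itself stood at 1251 against 12.4, 0, 268 and 482, so it was called with a smaller margin. Fcer1g and Tyrobp, adaptors shared by macrophages and other myeloid cells, and Cd53, a tetraspanin of many leukocytes, were above the range but not by 2-fold. Tyrobp stood at 1469 against 798, 35.4, 968 and 485, and the 2 replicates with the highest values were also those with the highest sums of the neutrophil list, at 32312 for replicate 2 and 49124 for replicate 6 against 150 in replicate 5, 20293 in replicate 14 and 2125 in the unsorted library. The part of neutrophils in the myeloid values was not tested.

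Genes of perivascular-type macrophages followed the core list, with 9 of 11 compared members higher and none lower. Cd163, a scavenger receptor for haemoglobin complexes, stood at 211 against 1.78, 15.0, 0 and 15.0. Lyve1, a hyaluronan receptor also found on lymphatic vessels, stood at 182 against 30.2, 0, 78.3 and 10.2. Cbr2, a carbonyl reductase, was an exception: it stood at 161 in the unsorted library and at 811, 207, 1622 and 93.1 in the replicates. Chemokine and cytokine genes were also among those farthest above the range. Ccl12, a monocyte-attracting chemokine, stood at 768 against 1.78, 2.72, 3.26 and 2.14, and Il1a, which encodes interleukin-1 alpha, at 528 against 0, 0, 1.63 and 0.535.

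Set against the sorted macrophages, the unsorted library held a small part of their level. Core members stood at a median of 3.7% of the mean of the 2 young macrophage libraries, from 1.65% to 32.0% by gene. For Cx3cr1, at 9201 and 22528 in macrophage replicates 9 and 15, the unsorted value was 12.4% of their mean, and for C1qc, at 165314 and 207482, it was 2.57%. The summed value of the 20 core genes was 54741 in the unsorted library, 1419 to 6487 in the 4 young nonmacrophage libraries, 2911 to 5291 in the 4 old ones, and 1261904 and 1621033 in young macrophages. All 17 core calls and all 9 perivascular-type calls also held against the 8 young and old nonmacrophage libraries. Old nonmacrophages were themselves above the young for some of these genes: Cx3cr1 stood at 26.8 to 102 in them and Mrc1 at 16.6 to 59.3.

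**Figure D2:**
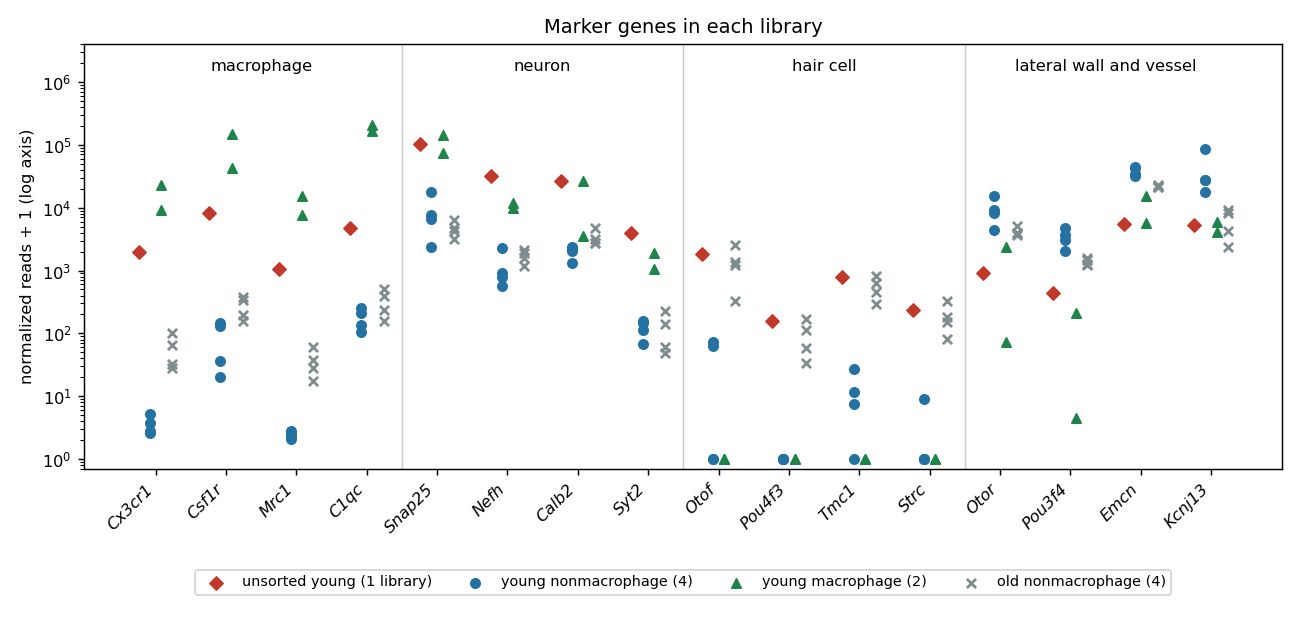
Normalized reads + 1 (log axis) of 16 marker genes in the unsorted library (red diamonds), 4 young nonmacrophage (blue circles), 2 young macrophage (green triangles) and 4 old nonmacrophage libraries (grey crosses). Macrophage genes in the unsorted library lie between the sorted fractions, neuron genes lie within or above the macrophage libraries, hair cell genes lie within the range of the old nonmacrophages, and Otor, Pou3f4 and Emcn lie under both nonmacrophage groups.

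Neuron genes were the second large class that the unsorted library held above the nonmacrophage libraries. Of 24 genes of the spiral ganglion neuron list, 18 were higher, none was lower and 17 were also above the old nonmacrophage libraries. Snap25 (chromosome 2, 136713453 to 136782428, plus strand, mm10), a membrane protein of the vesicle fusion machinery, stood at 104016 against 7576, 17714, 6605 and 2339 in replicates 2, 5, 6 and 14. The value was 2.55 log2 units above the highest replicate. Every nonmacrophage library held the gene well above its floor, and replicate 14 held the fewest normalized reads.

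Neurofilament genes, which encode the scaffold of large axons, were further apart than Snap25. Nefh, the heavy subunit, stood at 32419 against 909, 2289, 778 and 575. Nefm, the medium subunit, stood at 16702 against 1152, 1073, 1162 and 460. The unsorted library was above the highest replicate by 3.82 log2 units for Nefh and by 3.85 for Nefm. Calb2, the calcium buffer calretinin that is abundant in a large share of spiral ganglion neurons, stood at 26090 against 1328, 2296, 2046 and 2366. Rbfox3, the splicing regulator known as NeuN, stood at 1699 against 1.78, 125, 83.2 and 43.9, and Slc17a7, a vesicular glutamate transporter, at 4064 against 151, 774, 284 and 50.8. Members that were not called include Gap43, a protein of growing axons, at 145 against 77.6 to 377, Prph, a neurofilament protein of the less numerous type II neurons, at 56.6 against 64.7 to 386, and Ntrk3, the receptor for neurotrophin-3, at 382 against 102 to 651.

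The machinery of transmitter release followed the same pattern, with 15 of 19 compared genes higher, 1 lower and 14 higher also against the old nonmacrophages. Syt2, a fast calcium sensor of release, stood at 3948 against 114, 147, 158 and 66.3. Syn1, which tethers vesicles, stood at 10242 against 322, 535, 599 and 139, and Dnm1, the GTPase that pinches off endocytic vesicles in neurons, at 20423 against 560, 1122, 163 and 429. The unsorted value was 24.8-fold, 17.1-fold and 18.2-fold above the highest replicate for these genes, on the value + 1 scale. Cplx2, a complexin, was the lower one, at 42.8 against 372, 91.3, 176 and 156, while its relative Cplx1 stood at 28870 against 2674, 3409, 1831 and 1013. Vamp2, the vesicle partner of Snap25 and a gene of many cell types, was within 2-fold of the range, at 11881 against 3837 to 7049.

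Ion channels and receptors that set the firing of neurons were split by gene. Among potassium channels 8 of 15 were higher, including the fast delayed rectifiers Kcnc1 (2954 against 377, 244, 219 and 49.7) and Kcnc2 (4170 against 33.8, 343, 16.3 and 0). Kcna1 and Kcna2, channels that cluster beside the nodes of myelinated axons, were not called: Kcna1 stood at 10651 against 23323, 12615, 30108 and 8815. Among sodium and calcium channels 3 of 15 were higher, against 9.49% of all genes. They included the auxiliary subunits Scn4b (2994 against 80.0, 136, 238 and 61.0) and Cacnb2 (699 against 46.2, 1.36, 139 and 217). The sodium channel Scn1a, a member of the neuron list, stood at 2462 against 124, 83.1, 19.6 and 27.3, whereas Scn8a stood at 2601 against 1591, 937, 674 and 562. Among transmitter receptors 9 of 15 were higher, among them the obligatory NMDA receptor subunit Grin1 at 2844 against 0, 99.4, 3.26 and 23.5.

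Sorted macrophage libraries of the whole cochlea also held these neuronal messages. Snap25 stood at 144553 and 74052 in young macrophage replicates 9 and 15, on either side of the unsorted value, and at 140741 to 155783 in the 4 old macrophage libraries. The summed value of the 24 neuron genes was 317789 in the unsorted library, 15332 to 51614 in the young nonmacrophage libraries, 366816 and 191092 in young macrophages and 397694 to 575987 in old macrophages. In the single libraries of the young auditory nerve the sum was 43489 in nonmacrophages and 44771 in macrophages, and in those of the lateral wall it was 3594 and 976. Above both young fractions by 2-fold were 6 of the 24 neuron genes, 9 of the 19 release genes and 8 of the 15 potassium channel genes, against 4.65% of all genes. Nefh was one of them, at 11904 and 9945 in young macrophages, yet old macrophages held it at 19083 to 60224, a range that includes the unsorted value. How neuronal messages entered the GFP-positive libraries was not tested.

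**Figure D3:**
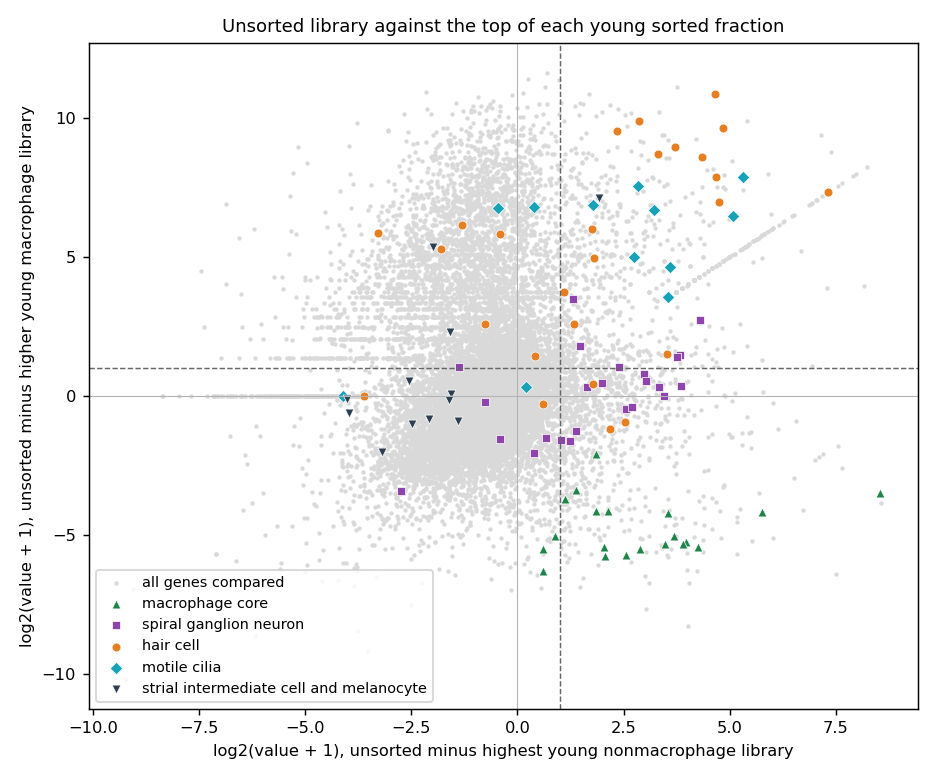
Each point is a gene, placed by how far log2(value + 1) in the unsorted library lay from the highest young nonmacrophage library (horizontal) and from the higher young macrophage library (vertical); dashed lines mark 2-fold. Macrophage genes lie at the lower right, neuron genes near the horizontal zero line on the right, hair cell and cilia genes mostly at the upper right, and melanocyte genes mostly on the left.

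Count models were run as an alternative. They assume that the single unsorted library varied like the 4 others, so their p-values rest on the spread of the nonmacrophages alone and are no replicate check of the unsorted library. Reads were recovered from the table, and edgeR's quasi-likelihood test with Benjamini-Hochberg adjustment at 0.05 called 22 genes (0.131% of those compared), all higher in the unsorted library, with adjusted p from 0.027 to 0.0279 (898 genes had an unadjusted p under 0.05). All 22 were also called against the 8 young and old nonmacrophage libraries. Mrc1, Cx3cr1, Csf1r and C1qc were 4 of them. A further 9 belong to the lists of neuron, release and channel genes, among them Nefm, Nefh, Calb2, Syn1, Sv2b, Syt2, Dnm1 and Kcnab2. Genes outside the lists included Cpne6, Dpp6, Chgb, Napb, Mapk8ip2, Rims3, Sgpp2 and Ckmt1. DESeq2 called 103 genes higher (0.616%) and 31 lower (0.185%, of which 28 were also lower by the range rule), and limma none in either direction at an adjusted p of 0.05 (1059 genes with an unadjusted p under 0.05).

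Hair cell genes were higher in the unsorted library than in the young nonmacrophages, but not than in the old ones. Of 26 genes 18 were called higher and none lower against the young libraries, and 15 were 2-fold above both young fractions. The shares over all genes were 9.49%, 1.89% and 4.65%. Members with no read in a replicate, 13 in replicate 2 and 12 in replicate 5, could not be called lower. Otof (chromosome 5, 30367062 to 30461932, minus strand, mm10), which encodes otoferlin, the calcium sensor of the hair cell ribbon synapse, stood at 1864 against 0, 0, 73.4 and 62.6 in replicates 2, 5, 6 and 14. It had no read in either young macrophage library. The 4 old nonmacrophage libraries held it at 321 to 2580, a range that contains the unsorted value. With the old libraries added, 2 of the 18 calls remained, among them that of Clrn1, the Usher syndrome protein clarin-1, at 838 against 165, 168, 183 and 28.9 in young and 181 to 323 in old nonmacrophages.

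The same held for the genes that define hair cell identity and transduction. Pou4f3, a transcription factor that hair cells need to survive, stood at 159 and had no read in any of the 4 young replicates, which is at least 40.0-fold above a floor of 3 reads per library (3.98 normalized reads on average). In old nonmacrophages it stood at 32.4 to 171. Tmc1, a pore-forming subunit of the transduction channel, stood at 783 against 10.7, 0, 6.53 and 26.2, with 291 to 818 in old nonmacrophages. Strc, which encodes stereocilin of the hair bundle's links, stood at 231 against 0, 0, 0 and 8.02. For each of these genes the young replicates lay far under the unsorted library while the old libraries lay around it. The summed value of the 26 genes was 15586 in the unsorted library, 1426 to 2976 in young and 6208 to 19490 in old nonmacrophages. Old and young nonmacrophage libraries differ in age, in depth and in the share of low genes with no read, and these cannot be told apart here.

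In all, 8 members of the hair cell list were not called, and 4 of them are given here, picked with their values in view. Slc26a5, which encodes prestin, the motor protein of outer hair cells, had no read in the unsorted library, which allows up to 4.59 normalized reads. It stood at 0, 0, 0 and 11.2 in the young replicates and at 346, 92.2, 202 and 140 in the old ones. Ocm, the calcium buffer oncomodulin of outer hair cells, stood at 68.8 against 42.7, 104, 171 and 150 in young and 468 to 1074 in old nonmacrophages. Ikzf2, a transcription factor of outer hair cells, stood at 56.6 against 556, 59.9, 429 and 116. Slc17a8, the vesicular glutamate transporter of inner hair cells, stood at 58.1 against 97.8, 73.5, 99.5 and 16.6.

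Motile cilia genes, which serve ciliated epithelia such as the middle ear lining and of which hair cells share a few, behaved like the hair cell genes at a lower level. Of 12 compared genes 8 were higher, all 8 were above both young fractions, and none was higher against young and old nonmacrophages together. Tekt1, a structural protein of ciliary microtubules, stood at 234 against 0, 0, 4.89 and 0, with 97.7 to 335 in old nonmacrophages. Foxj1, the regulator of motile cilia, stood at 185 against 24.9, 8.17, 3.26 and 20.9, with 40.6 to 195 in old nonmacrophages. In the tectorial membrane list 2 of 8 genes were higher, against 9.49% of all genes. One was Tecta, the alpha-tectorin of the membrane above the hair cells, which stood at 662 against 0, 59.9, 11.4 and 24.6. Neither was called once the old libraries were added.

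**Figure D4:**
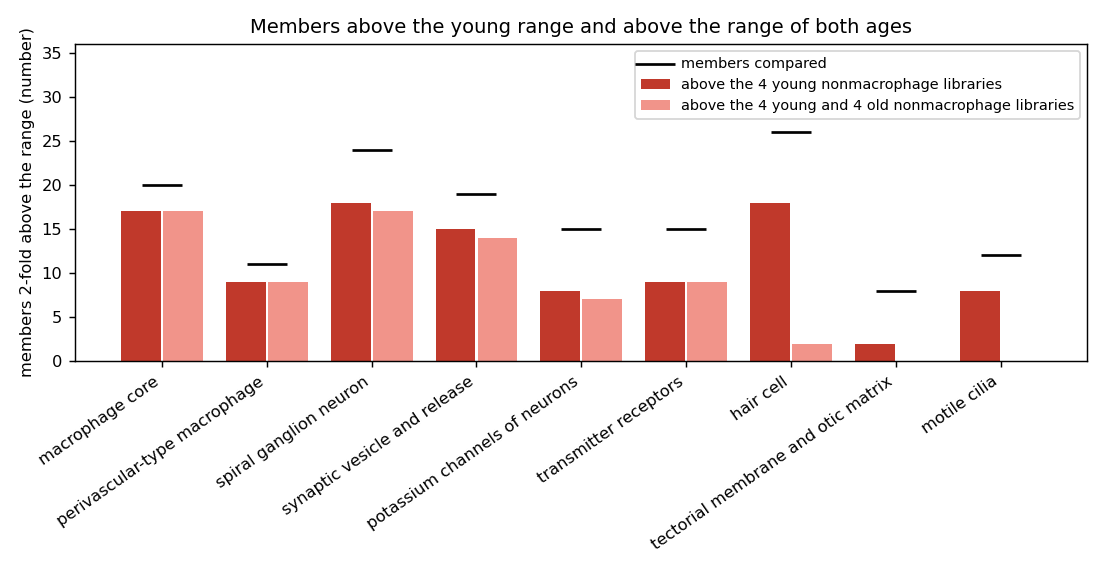
Number of members of 9 lists that were 2-fold above the 4 young nonmacrophage libraries (dark bars) and 2-fold above the 4 young and 4 old ones together (light bars), with black marks at the members compared. The macrophage core list has 17 in both, the neuron list goes from 18 to 17, the hair cell list goes from 18 to 2 and the motile cilia list from 8 to 0.

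Several genes farthest above both young fractions belong to none of the lists. Pcsk1, a convertase that processes peptide hormones, stood at 298 with no read in any of the 6 sorted young whole-cochlea libraries, and at 21.9 to 27.7 in old nonmacrophages. Vwa5b2 and Skor1, at 187 and 249, also had no read in those 6 libraries, but Skor1 stood at 62.9 in the young auditory nerve nonmacrophage library. Abcc8, the sulfonylurea receptor, stood at 671 against 0, 0, 0 and 3.74, with no read in young whole-cochlea macrophages. The 4 old macrophage libraries did hold these genes, Pcsk1 at 152 to 494, Vwa5b2 at 248 to 407 and Abcc8 at 239 to 519. Cyp2g1, a cytochrome P450 of olfactory-type epithelium, and Skor1 were not above the old nonmacrophages, which held Cyp2g1 at 110 to 448 and Skor1 at 36.8 to 291. Against all 14 sorted whole-cochlea libraries of both ages 34 genes were higher and 6 lower. Of the 34, 29 had under 100 normalized reads in the unsorted library. Only Syt13, an atypical synaptotagmin, exceeded 1000, at 1512. The single young auditory nerve macrophage library held Syt13 at 1033 and Abcc8 at 111, and the lateral wall one had no read of either.

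Lists with genes lower in the unsorted library included those of the lateral wall, glia, vessels, connective tissue and bone. Emcn, the endothelial sialomucin endomucin, stood at 5592 against 43386, 44529, 34495 and 32133 in replicates 2, 5, 6 and 14, a mean of 38636 ± 6238 (SD, n = 4). The unsorted value was 5.75-fold below the lowest replicate on the value + 1 scale and also under the old nonmacrophages, at 21071 to 23200. The other 14 endothelial genes were within the range or less than 2-fold outside it, among them Pecam1 at 3615 against 1568, 2620, 2354 and 3680. Emcn was the 1 call in its list.

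Spiral ligament fibrocyte genes were lower for 4 of 12 members, against 1.89% of all genes, and none was higher. Otor, which encodes the secreted protein otoraplin, stood at 911 against 15047, 9252, 4379 and 8349, and Pou3f4, a transcription factor of otic mesenchyme, at 431 against 4699, 3015, 3634 and 2022. The unsorted value lay 4.8-fold under the lowest replicate for Otor and 4.68-fold for Pou3f4, on the value + 1 scale. Tbx18, another mesenchymal transcription factor, stood at 716 against 3634, 2787, 1633 and 2962, and Coch, the matrix protein cochlin, at 54059 against 125822, 362711, 120474 and 152451. Otor, Pou3f4 and Tbx18 were also lower than the old nonmacrophages, and Coch was under their values of 71089 to 95176 by less than 2-fold. Slc4a11, a transporter, and Otos, which encodes otospiralin, were inside the range.

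Pigment cell genes are expressed by the strial intermediate cells. Of 12 members 6 were lower and 1 was higher, against 1.89% and 9.49% of all genes. Kcnj13, an inward rectifier channel, stood at 5358 against 86847, 27192, 27659 and 17411. Kcnj10, the channel through which intermediate cells generate the endocochlear potential, stood at 1208 against 18797, 5723, 15278 and 3107. Dct, an enzyme of melanin synthesis, stood at 76849 against 454676, 183171, 169340 and 234518, and Slc45a2, a transporter of the melanosome, at 6852 against 38400, 33243, 28982 and 20046. None of the 6 was lower against the 8 young and old libraries: old nonmacrophages held Kcnj13 at 2385 to 9028 and Kcnj10 at 1230 to 2004. Oca2, another melanosomal transporter, was the higher one, at 138 against 0, 35.4, 0 and 10.7. Strial marginal cell genes showed no call in either direction among 12, and their median difference from the mean of the 4 was 1.07 on the log2 scale.

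Glial lists differed in how many members passed the 2-fold rule. Among oligodendrocyte genes 3 of 13 were lower, against 1.89% of all genes, and none was higher. Mog, a surface protein of mature myelin, stood at 440 against 2551, 11152, 3133 and 978. Klk6, a protease, stood at 333 against 2494, 10416, 3891 and 1005, and Gpr37, a receptor, at 1752 against 6756, 7434, 4214 and 4499. None of them was lower against the 8 libraries. In the astrocyte and satellite glia list 3 of 7 were lower, and of these Slc1a2, a glutamate transporter, stood at 94.8 against 926, 229, 832 and 191. No Schwann cell gene of 16 was called. By any amount 11 were under the lowest replicate, as were 8 of the 13 oligodendrocyte genes, against 2893 of the 16733 genes compared. The median difference from the mean of the 4 was -1.02 for the Schwann cell list and -1.61 for the oligodendrocyte list. It was -0.05 for the astrocyte and satellite glia list and 0.29 over all genes. Among the 11 Schwann cell genes, Mal, a membrane protein of myelin, stood at 14674 against 41524, 35459, 45608 and 16421. Prx, which encodes periaxin of peripheral myelin, stood at 51264 against 18601, 14404, 21477 and 57721, so the Schwann cell genes did not move as 1 group.

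Matrix and bone genes completed the lower class. Lum and Dcn, small proteoglycans of collagen fibrils, and Fbn1, a microfibril protein, were the 3 of 20 fibroblast genes that were lower, and Lum stood at 1824 against 12085, 9011, 10397 and 5278. Lum and Dcn were also lower than the old nonmacrophages. Collagen genes Col1a1, Col1a2 and Col3a1 were not called. Bglap, the osteoblast product osteocalcin, stood at 118 against 6212, 1088, 13867 and 1605, with 29.1 to 678 in old nonmacrophages. Bglap2 is a near copy with which it can share reads. Of 14 osteoblast and osteocyte genes 3 were lower and 2 were higher (14.3%, against 9.49% of all genes). The higher ones were Mepe and Sost, products of osteocytes: Mepe stood at 231 against 24.9, 88.5, 0 and 57.8, and Sost at 79.5 against 0, 0, 8.16 and 0. Ttr, the thyroid hormone carrier transthyretin, stood at 197 against 2927, 1286, 2629 and 1591, and Pam, a peptide-amidating enzyme, at 362 against 2964, 2582, 2521 and 2002. Both remained lower against the 8 libraries. Ifitm1, an interferon-inducible membrane protein, stood at 589 against 17892, 5479, 9165 and 3240 and was also 2-fold below both young macrophage libraries.

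**Figure D5:**
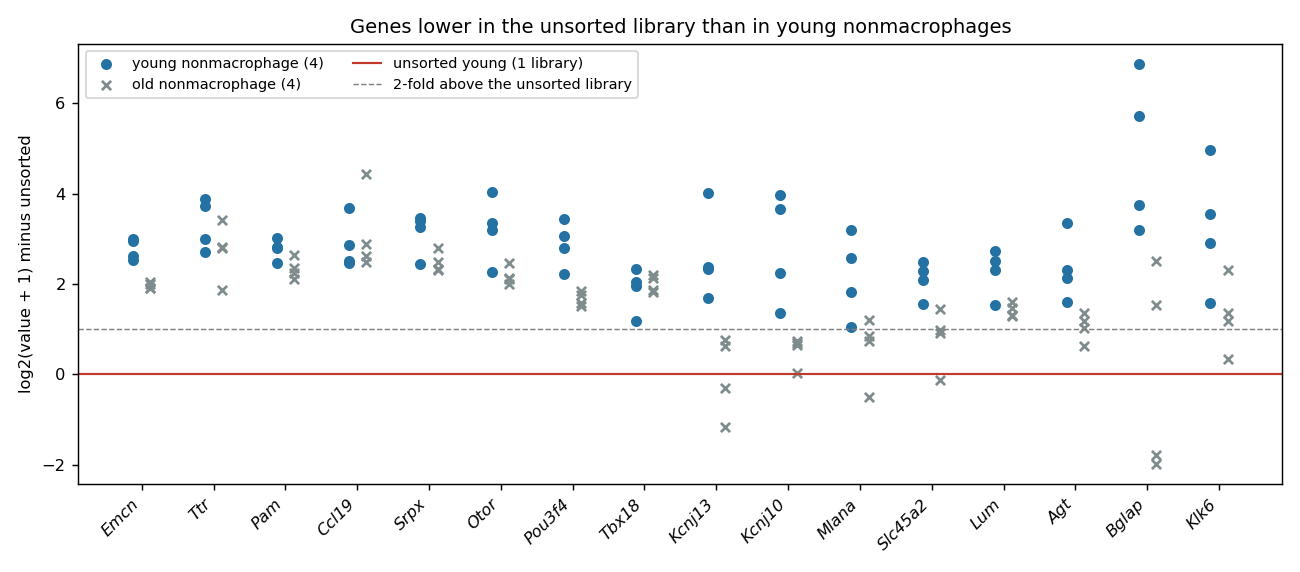
log2(value + 1) of 16 genes in 4 young (blue circles) and 4 old nonmacrophage libraries (grey crosses), relative to the unsorted library (red line at 0); the dashed line marks 2-fold. Young values lie 1 unit or more above the unsorted library for each gene. Old values of Emcn, Ttr, Pam, Ccl19, Srpx, Otor, Pou3f4, Tbx18 and Lum do too. The lowest old values of Kcnj13, Mlana, Slc45a2 and Bglap lie under the unsorted library.

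Transcript length and stress genes were examined beside these differences. Genes were ranked by the summed length of their exons and cut into 4 classes of like size. In the class with the shortest exons (65 to 2545 bases), 3.67% were lower and the median log2 difference was -0.29. In the longer classes 1.19% to 1.36% were lower and the medians were 0.27 to 0.54. The share of higher genes was 8.44% to 10.06% by class. No immediate early gene of 19 and no nuclear gene of oxidative phosphorylation of 20 was called. The immediate early sum was 389642 in the unsorted library, 110211 to 159395 in replicates 2, 5 and 6 and 727247 in replicate 14, so replicate 14 and the others lay on opposite sides of the unsorted library. Of 14 heat shock genes 2 were higher, against 9.49% of all genes. Blood was unevenly spread: the erythroid sum was 128184 in the unsorted library and ran from 13651 in replicate 14 to 1786090 in replicate 2. The part of length, dissociation stress and blood in the calls was not tested.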

How the data were processed

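RNA from 19 mouse samples, 1 mouse each, had been prepared with the RNeasy Micro kit, SMARTer Ultra and Nextera XT and sequenced on a HiSeq 2500, some samples a second time, and poor RNA had been left out, per the labels' protocols. The submitters' processing notes name TopHat2, Partek, DESeq2 and the mm10 build and give no versions. The deposited table holds 1 signal value per gene and library, which per the file headers and the values is the number of reads over a size factor of the library. Whole reads were recovered from its steps: 100.0% of values under 10000 reads, and 99.89% of all values above 0, were whole within 0.1 read.

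Values were compared as log2(value + 1), with the range rule given in the text. Of the 18639 genes, 1906 stayed under 10 normalized reads in all 5 libraries and were left out. A fold on this scale understates the change of low genes. Floors are 3 reads per library. Without molecular identifiers they account for counting error alone. Positions come from GENCODE M21 (18294 symbols matched) and promoters from RefSeq. Each pair of the 4 nonmacrophage libraries differed by more than sampling noise, with a chi-square of 201.7 to 826.6 per degree of freedom.

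The members, the 37 lists and the rules were chosen with earlier results of these data known. Named genes were the 12 farthest beyond the range each way, with at least 100 normalized reads in the unsorted library (higher) or in every nonmacrophage library (lower), the 8 farthest above both young fractions, up to 5 per list described, and Otof, Snap25 and Cx3cr1. Predicted, clone and sex-linked names were passed over. The Y-linked gene Ddx3y stood at 3507.6 in the unsorted library and at 1504.1, 0, 1.6 and 3717.9 in replicates 2, 5, 6 and 14. Xist stood at 1.5 against 0, 298.3, 1494.5 and 7.0. The part of sex in the calls was not tested. Other genes named, such as Slc26a5 and Syt13, were picked with their values in view. A few genes within these rules are not reported here.

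As alternatives, other pseudocounts, filters, scalings and folds, leaving out each library, limma 3.58.1, and, chosen after seeing the data, edgeR 4.0.16 and DESeq2 1.42.0 on the recovered reads, thinning, and the old libraries were used. These models take the spread from the 4 nonmacrophage libraries. They were also run on simulated counts with the same spread for every gene, which is no check of the calls made here. The labels' replicates of a group are separate mice. Scripts ran in Python 3.11.15 and R 4.3.3.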

Additional observations from a re-analysis of the deposited data

Results flagged for a closer look

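Within the 4 young nonmacrophage libraries, 168 named genes and 38 averages were checked, those of the 37 lists and of all genes compared. By Dixon's criterion 1 replicate stood apart from the other 3 for 3 of the 38 averages and 14 of the 168 genes. Chance gives about 1 in 20 such groups. All values are given without explanation.

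By mean log2(value + 1), the neutrophil and marrow granule list stood at 1.63 in replicate 5, the mast cell list at 1.51 in replicate 2 and the immediate early list at 13.75 in replicate 14. The neutrophil alarmins followed their list in replicate 5, with S100a8 at 1.36 normalized reads and S100a9 at 0. Only 2 of the 9 mast cell list genes were compared, Kit and Hdc, which encode a growth factor receptor and the histamine-making enzyme. Kit stood at 7.11 and Hdc at 0 in replicate 2, so the flag of that list rests on these 2 genes alone.

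Replicate 14 was the lowest for Casq1, a calcium-binding protein of muscle (296), and for Nefm (460), and the highest for Ocstamp, a fusion gene of osteoclasts, at 35.3 against 0 in the others. Replicate 5 was the lowest for Esrrb, a strial transcription factor (30.0 normalized reads), and the highest for the osteoclast gene Dcstamp (28.6) and the glutamate receptor Grm8 (77.6). Replicate 6 was the lowest for the glucose transporter Slc2a3 (53.8) and the highest for Fbn1 (1470). Replicate 2 was the lowest for the vesicle protein Sv2b (116) and the chaperone Hsph1 (832). The unsorted library is 1 sample and cannot be checked this way.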

How the results depend on the processing

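Against the nonmacrophages (1588 higher and 316 lower as reported) the counts were 805 and 47 at 4-fold beyond the range, 4391 and 2893 outside it by any amount, 5092 and 2040 at 2-fold from the mean, 1051 and 145 with the old libraries, 0 and 0 with limma, 22 and 0 with edgeR, 103 and 31 with DESeq2, and 827 lower with quantile normalization. Leaving out 1 nonmacrophage library gave 1763 to 2610 higher and 429 to 811 lower, the upper ends without replicate 14. Against both fractions (778 and 46) they were 368 and 2 at 4-fold, 2719 and 1186 by any amount, 457 and 299 with quantile normalization, 428 higher with values of at least 100, 25 lower with a common total, 462 and 13 with the 4 libraries of auditory nerve and lateral wall added, and 34 and 6 with all 14 sorted libraries. Leaving out 1 library gave 854 to 1372 higher and 49 to 179 lower, with the upper ends again without replicate 14, and 102 and 72 lower without macrophage replicates 15 and 9.

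limma called no list member. edgeR called 3 macrophage core, 3 neuron and 5 release genes and none of the hair cell, cilia, ligament or pigment genes. DESeq2 called 6 macrophage core, 9 neuron, 2 ligament and 1 pigment gene, and 0 hair cell and 0 cilia genes. With the old libraries 2 hair cell, 0 cilia and 0 pigment genes were called. At 4-fold 11 neuron, 2 ligament and 0 pigment genes were called. A minimum of 100 left 5 cilia genes, a common total 2 ligament genes, 2-fold from the mean gave 7 ligament genes, and any amount gave 10 pigment genes. No named gene called in one direction was called in the other under any alternative run. Genes outside the named set were checked for this only in the model fits. The median difference over all genes went from 0.29 to -0.04 with quantile normalization and to -0.02 with edgeR. The cause of these shifts was not tested.

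No paired analysis was made. The libraries of the series are numbered in a single run, so the numbers do not show whether any libraries shared a mouse. The single unsorted library has no replicate check, and its 20.6 M reads limit genes of few reads, where an absent gene may reach 4.59 normalized reads.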

Other observations

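Other blood and tissue lists had few calls. Of 12 T and NK cell genes 2 were higher in the unsorted library, of 11 B cell genes 2, of 5 platelet genes 2, of 11 erythroid genes 1, of 13 neutrophil genes 1, of 14 cell cycle genes 2, of 6 osteoclast genes 1 and of 9 cartilage genes 1, with none lower. Genes with no read in a replicate could not be called lower, among them 7 of the 13 neutrophil genes in replicate 5. The neutrophil sum was 2125 in the unsorted library, 150 in replicate 5 and 20293 to 49124 in replicates 2, 6 and 14. The median difference of that list from the mean of the 4 was -1.25 on the log2 scale. In the skeletal muscle list 2 of 10 were higher and 2 lower, and in the supporting cell list 2 of 16 were higher and 1 lower, against 9.49% and 1.89% of all genes. The supporting cell exception was Epyc, the proteoglycan epiphycan, at 1498 against 8838, 10113, 4151 and 17946 in replicates 2, 5, 6 and 14. Bdnf, a neurotrophin in the same list, stood at 477 against 0, 54.5, 186 and 13.9. None of 13 pericyte genes was called, and 1 of 12 epithelial genes was lower.

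Long nuclear RNAs differed among themselves. Meg3 stood at 1607 against 156, 87.2, 256 and 343, and Rian, from the same imprinted cluster, at 202 against 23.1, 70.8, 0 and 17.6, both higher also against the old nonmacrophages. Malat1 stood at 53836 against 300525, 96113, 281524 and 225603, and was under the range without reaching the 2-fold rule.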
